A study of Homo sapiens with 4 samples.

Results

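The 6 genes described here, ZEB1, ZEB2, TWIST1, TWIST2, SNAI1 and SNAI2, encode the transcription factors best known for driving the epithelial-mesenchymal transition (EMT), in which epithelial cells give up their junctions and become motile. Every region that the authors' deposited table assigned to 1 of these genes was taken, which gave 96 of 91107 regions beside 6 of 17301 genes: 43 for ZEB2, 14 each for TWIST2 and SNAI1, 10 each for ZEB1 and TWIST1, and 5 for SNAI2. The regions are stretches of chromatin carrying H3K27ac, an acetylated histone H3 found at active promoters and enhancers, in the human melanoma cell line A375. Cells received either 1 mM octanoate, a medium-chain fatty acid, or its vehicle isopropanol for 48 hours, with 2 libraries per treatment. The table compares the 2 treatments and holds no value per library, so depth, the values of single libraries and the spread between replicates were not analysed here. Each error is the standard error (SE) that the authors' model gave a region. Its header does not say which treatment is the numerator, so fold changes are called positive or negative and not gains or losses under octanoate. Assignment to a gene does not show that a region acts on that gene, and nothing in the labels says whether the 2 libraries of a treatment came from separate cultures.

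ZEB1 and ZEB2 are zinc finger and homeodomain repressors, SNAI1 and SNAI2 (also called SNAIL and SLUG) are zinc finger repressors, and TWIST1 and TWIST2 are basic helix-loop-helix (bHLH) proteins that bind DNA as dimers with E proteins such as TCF3. All of them recognise E-boxes, short motifs of the form CANNTG, and the ZEB and SNAI proteins favour the version CAGGTG in the promoter of CDH1, the gene of E-cadherin. In carcinomas they act in the same direction. In the melanocyte lineage they are divided: ZEB2 and SNAI2 are present in differentiated melanocytes, and a switch towards ZEB1 and TWIST1 is known from melanomas that lose differentiation and invade. ZEB1 and TWIST1 were therefore set against ZEB2 and SNAI2.

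The stretch of 250 bases before the annotated start is printed for 3 members, because the region over the start was the reading shared by all 6 genes. These stretches show which E-boxes lie just before that start, and not those across the whole start region. RefSeq's promoter table (GRCh38.p14) matched 3 of the 6 genes, ZEB1, ZEB2 and TWIST2. Sequences run 5′ to 3′ on the strand of the gene, and capitals mark every CANNTG. The ZEB1 stretch is chr10:31318167-31318416 on the plus strand, the first of 7 ZEB1 starts in that table. The ZEB2 stretch is chr2:144520120-144520369 on the minus strand, and that of TWIST2 is chr2:238847835-238848084 on the plus strand.

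ZEB1: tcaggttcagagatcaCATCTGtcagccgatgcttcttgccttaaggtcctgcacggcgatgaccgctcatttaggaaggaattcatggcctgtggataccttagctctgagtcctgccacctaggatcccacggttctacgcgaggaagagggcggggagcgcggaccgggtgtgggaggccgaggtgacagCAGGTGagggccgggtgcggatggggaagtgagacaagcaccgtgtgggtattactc

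ZEB2: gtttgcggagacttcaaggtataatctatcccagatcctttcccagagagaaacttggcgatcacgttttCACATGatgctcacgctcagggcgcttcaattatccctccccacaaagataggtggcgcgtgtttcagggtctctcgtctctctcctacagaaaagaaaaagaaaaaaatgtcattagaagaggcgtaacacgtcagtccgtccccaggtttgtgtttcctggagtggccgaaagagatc

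TWIST2: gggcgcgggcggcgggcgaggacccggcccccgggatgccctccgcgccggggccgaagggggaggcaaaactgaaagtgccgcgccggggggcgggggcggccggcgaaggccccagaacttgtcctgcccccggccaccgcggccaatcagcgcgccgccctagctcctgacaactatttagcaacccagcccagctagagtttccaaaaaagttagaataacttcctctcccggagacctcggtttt

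In the ZEB1 stretch a CATCTG begins at -234 and a CAGGTG at -57, where -1 is the last base before the start. ZEB2 has 1 E-box, a CACATG beginning at -180, and TWIST2 has 0. A match of these letters describes the stretch and does not show a bound site. Guanine and cytosine make up 59.2% of the ZEB1 stretch, 48.0% of the ZEB2 stretch and 68.4% of the TWIST2 stretch, beside a median of 58.0% over all promoters of the table. Motifs were then searched on both strands in the 300-base windows, which add the first 50 transcribed bases. Of the 9 member windows, 7 were of ZEB1 and 1 each of ZEB2 and TWIST2, so most of them describe 1 gene. CAGGTG, or CACCTG on the other strand, lay in 2 of the 9 member windows, both of ZEB1, and in 20.6% of all 35116 promoter windows. CANNTG, which includes it, lay in 5 of 9 windows, from 2 of the 3 genes, and in 68.7% of all. TGANTCA, the AP-1 motif, lay in 0 of 9 and in 7.71% of all, and CACGTG or CATGTG, the forms read by MITF, which are also CANNTG, in 2 of 9 and in 17.6% of all. The ZEB1 and TWIST2 stretches lay inside the region over the start of their gene, whereas that of ZEB2 ran past the end of its region at 144520170 into a gap before the next region at 144520690. The ZEB2 CACATG lay in that gap.

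The starts of the 6 genes carried the mark at different densities. Each gene had 1 region over its start, at a deposited distance of 0. In the authors' deposited table the SNAI1 start region (chromosome 20, 49982292 to 49991952) had a mean level of 473 over 9660 bases, or 48.9 per kb, in the authors' normalized units. That density was above 99.3% of the 10642 regions over a start. TWIST1 followed with 29.3 per kb (chromosome 7, 19114150 to 19117849), then ZEB2 with 27.04 (chromosome 2, 144514802 to 144520170) and ZEB1 with 23.0 (chromosome 10, 31317877 to 31322214), computed from the authors' deposited table on both sides of the median of 25.3 over all start regions. TWIST2 had 18.1 per kb (chromosome 2, 238847487 to 238849937), and SNAI2 had the lowest density, 13.4 per kb over 1902 bases (chromosome 8, 48920454 to 48922356), above 4.13% of start regions. The authors' deposited table gave this SNAI2 region a mean level of 25.5. SNAI1 thus stood apart from the other 5 at the top, and which neighbours in the order differ beyond library spread could not be tested.

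**Figure D1:**
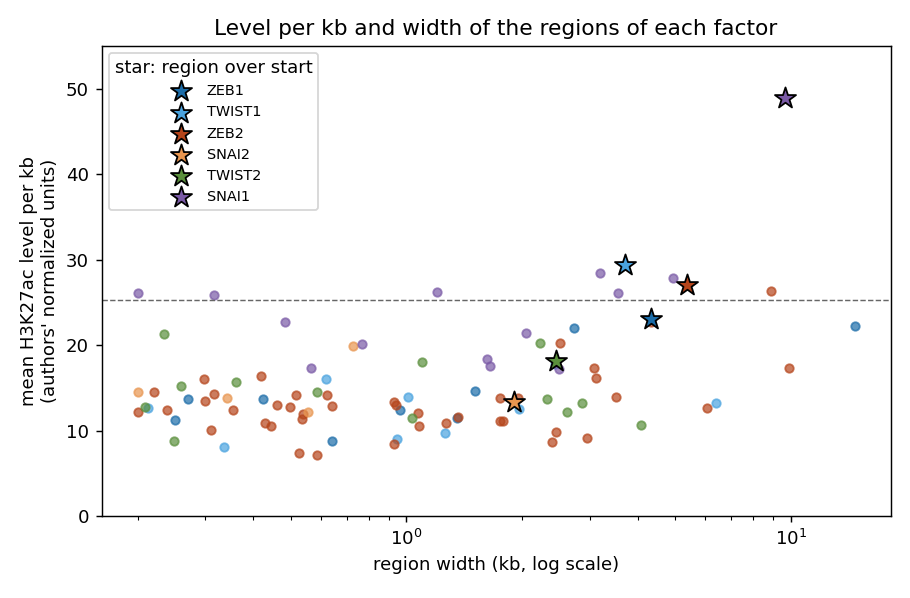
Mean H3K27ac level per kb in the authors' normalized units (vertical axis) against region width in kb (horizontal axis, log scale) for all 96 regions, coloured by gene. Stars are the regions over gene starts and the dashed line is the median of all start regions, 25.3 per kb. The SNAI1 star sits at 48.9 and the SNAI2 star at 13.4.

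All 6 start regions had a positive fold change, and none had an adjusted p-value under 0.05. In the authors' deposited table, on the log2 scale, the values were 0.56 (SE 0.30) for TWIST2, 0.48 (SE 0.26) for ZEB1, 0.41 (SE 0.23) for TWIST1, 0.36 (SE 0.39) for SNAI2, 0.25 (SE 0.21) for SNAI1 and 0.23 (SE 0.25) for ZEB2. TWIST2 had the lowest adjusted p-value of the authors' deposited table among the 6, 0.287, and ZEB2 the highest, 0.574. A positive sign is common to most of this table: 98.1% of start regions with an adjusted p-value were positive, with a median of 0.35, so the 6 members lay on both sides of that median. When the median over all regions with an adjusted p-value, 0.32, was subtracted as a shift common to the table, 4 of the 6 were positive and those of ZEB2 and SNAI1 negative. The order of the 6 is within their errors.

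ZEB1 and TWIST1 had larger fold changes at their starts than ZEB2 and SNAI2, by differences smaller than their errors. On the log2 scale ZEB1 exceeded ZEB2 by 0.25 (95% interval -0.45 to 0.95) and SNAI2 by 0.12 (-0.80 to 1.04), computed from the authors' deposited table. TWIST1 exceeded ZEB2 by 0.18 (-0.48 to 0.85) and SNAI2 by 0.05 (-0.84 to 0.95), computed in the same way from the authors' deposited table. These 4 pairs were compared with normal intervals that take the 2 standard errors as independent; a scaling factor common to all regions cancels in each difference. All 4 intervals include 0. They reach 0.85 or more on the side of ZEB1 or TWIST1 and -0.45 or less on the side of ZEB2 or SNAI2. Over whole loci the order of TWIST1 turned: the median over its 10 regions lay 0.39 below that of ZEB2 and 0.23 below that of SNAI2 in the authors' deposited table. The ZEB1 median kept its order, 0.13 above that of ZEB2 and 0.29 above that of SNAI2. No interval was computed for these differences of medians, and most regions of each of these genes had no adjusted p-value.

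**Figure D2:**
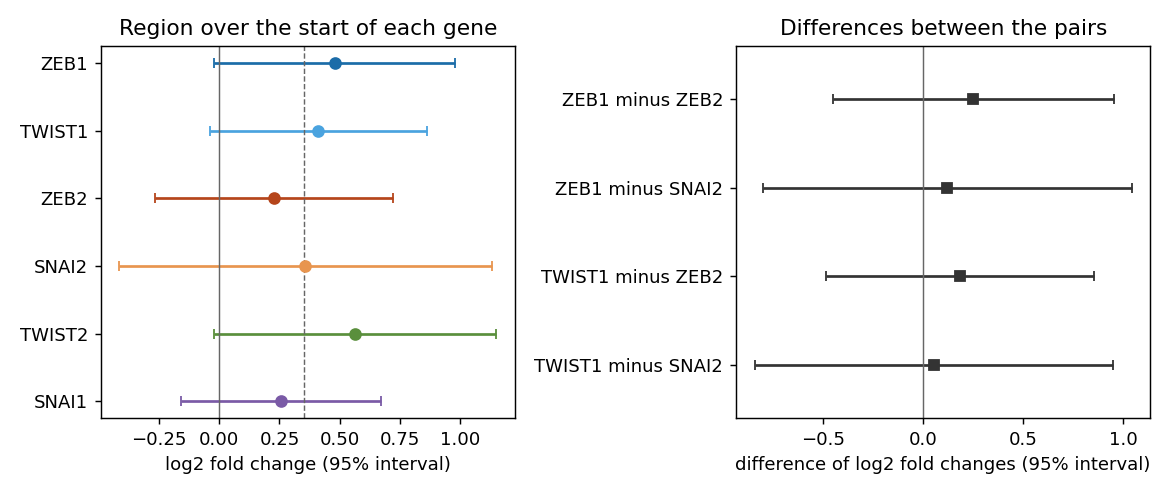
Left, log2 fold change (horizontal axis) of the region over the start of each gene, with 95% intervals from the authors' standard errors and a dashed line at 0.35, the median of start regions with an adjusted p-value. Right, the difference between members of the 2 pairs on the same scale. Every interval on both sides crosses 0.

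Of all 91107 regions, 67103 had a positive fold change. Across all positions, 78 of the 96 member regions had a positive one and 18 a negative one in the authors' deposited table. Of these, 41 carried an adjusted p-value, those with a mean level above 18.4; the other 55, including 27 of ZEB2 and 4 of the 5 of SNAI2, were too low for one. From the 41, 1 was called at an adjusted p-value under 0.05, and it was positive; 1.65% of all 36436 regions with an adjusted p-value were called positive and 0.0192% negative. At an unadjusted p-value under 0.05 the members had 3 positive regions of 41 (7.32%) and 0 negative ones, where the table as a whole had 17.9% and 0.475%. The median over all 96 regions was 0.32 on the log2 scale of the authors' deposited table, against 0.28 over all regions. By gene the median was 0.44 for ZEB1, 0.39 for TWIST2, 0.31 for SNAI1, 0.30 for ZEB2, 0.14 for SNAI2 and -0.09 for TWIST1. Only the TWIST1 median was below 0, with 5 of its 10 regions on each side; after subtraction of 0.32 the medians of ZEB2, SNAI2 and SNAI1 were below 0 as well, and 47 of the 96 regions were positive.

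**Figure D3:**
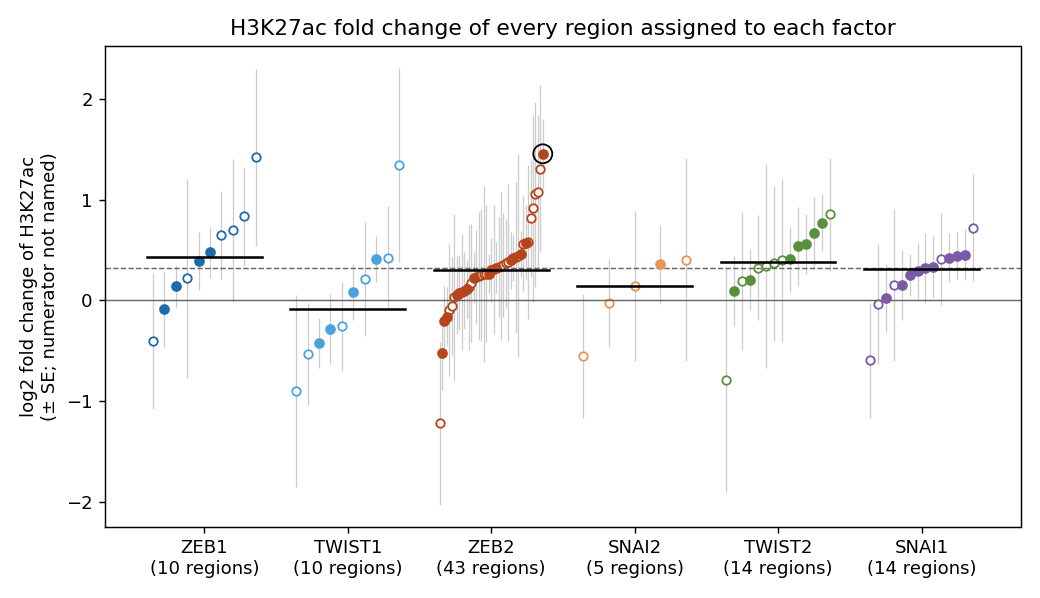
Log2 fold change (vertical axis) of each of the 96 regions, in ascending order within each gene, with the authors' standard error as bars. Filled points have an adjusted p-value, open points do not, black bars are medians, the dashed line is the median of all regions with an adjusted p-value (0.32), and the ring marks the 1 called region, in ZEB2 at 1.46. TWIST1 is the gene whose median lies below 0 as deposited. Those of ZEB2, SNAI2 and SNAI1 also lie below the dashed line, but those of ZEB2 and SNAI1 lie above 0.28, the median over all regions.

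The called region lay within ZEB2 (gene extent chromosome 2, 144384081 to 144520119, minus strand), 103825 bases from the start of the gene in the direction of transcription. Exon boundaries were not analysed here. It spans bases 144413330 to 144416278 of chromosome 2. Its log2 fold change by the authors' deposited table was 1.46 (SE 0.35), a ratio of 2.75, with an adjusted p-value of 0.00801. It ranked 115th by p-value among all regions with an adjusted p-value and 31st by fold change among the 601 positive calls, whose median was 1.02. Its mark was sparse: the mean level of 26.97 in the authors' deposited table, over 2948 bases, came to 9.15 per kb, against 27.04 per kb over the ZEB2 start. Away from starts the gap was smaller: the median density was 12.5 per kb over ZEB2 regions beyond 100 kb. Over all regions of the table it was 15.3 per kb. When the median of 0.32 was subtracted from all fold changes, 1.14 was left and the adjusted p-value became 0.208, so the call was lost.

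Its neighbours inside ZEB2 had smaller or negative values. The authors' deposited table listed 7 regions within the gene, of which 5 were positive and 2 negative. Toward the start from the called region lay a region 93351 bases from the start with 0.43 (SE 0.75), another at 92184 bases with 0.25 (SE 0.66) and a more distant one at 78734 bases with -1.22 (SE 0.81) in the authors' deposited table, all with mean levels under 10 and no adjusted p-value. Nearer the start, the region at 12159 bases had 0.27 (SE 0.68) and that at 6706 bases -0.16 (SE 0.29) in the authors' deposited table. Differences between these regions and the called one were not tested.

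Most of the H3K27ac assigned to ZEB2 lay upstream of it, 81.1% of the summed level, and 11.3% over its start. The authors' deposited table assigned 36 regions on that side, out to 1514084 bases, and 32 of them were positive. Of all 91107 regions, 67103 were positive. With 43 regions ZEB2 had more than 99.5% of the 17301 genes, whose median was 3 regions. Of the ZEB2 regions, 18 overlapped TEX41, a long non-coding RNA gene beside ZEB2, and these covered 47.4 kb. The highest of them (chromosome 2, 145021830 to 145030738) had a mean level of 235 and a log2 fold change of 0.27 (SE 0.19) in the authors' deposited table, and its density was 26.4 per kb. A region 515153 bases upstream (chromosome 2, 145035255 to 145039585) had 0.46 (SE 0.23) with p = 0.0465 before and 0.264 after adjustment in the authors' deposited table. The widest, of 9932 bases (chromosome 2, 144937428 to 144947360), had 0.42 (SE 0.23), and the most negative with an adjusted p-value (chromosome 2, 144769059 to 144771514) had -0.53 (SE 0.37) in the authors' deposited table. All 14 regions beyond 500 kb were positive, from 0.03 to 1.31, of which 5 had an adjusted p-value and 0 were called. Once 0.32 was subtracted, 8 of the 14 were positive. Among all regions of the table beyond 100 kb, 31.2% were negative before any subtraction.

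Of the 10 regions of TWIST1, 5 were positive and 5 negative. Its start and the 2 regions at 16613 and 37887 bases were positive in the authors' deposited table, with 0.41 (SE 0.23), 1.35 (SE 0.97) and 0.42 (SE 0.52). Those 2 regions had low levels, 2.73 and 9.90, and no adjusted p-value. Of the 7 regions beyond 100 kb, 5 were negative, where 31.2% of all regions at such distances were negative in the authors' deposited table. The 2 positive ones, at 220376 and 250393 bases, had 0.08 (SE 0.28) and 0.22 (SE 0.57) in the authors' deposited table. A difference between near and distant regions was not tested. Of the 7, 6 overlapped HDAC9, the neighbouring gene of a histone deacetylase, whose body is known to hold enhancers of TWIST1. The median over all regions beyond 100 kb was 0.23, so it also falls below 0 once 0.32 is subtracted. After that subtraction all 7 TWIST1 regions were negative, and the share among all regions at such distances was not computed. The largest (chromosome 7, 18973765 to 18980155), 137518 bases from the TWIST1 start, had a mean level of 84.5 and a log2 fold change of -0.42 (SE 0.25) in the authors' deposited table. That value was lower than all but 1.47% of regions with an adjusted p-value. Its own interval, from -0.91 to 0.07, includes 0, and the adjusted p-value was 0.333 in the authors' deposited table and 0.354 after the median was subtracted. The next region toward TWIST1 had -0.28 (SE 0.35), and the most distant one, 282035 bases away, -0.26 (SE 0.44) in the authors' deposited table. None of the 10 was called, and 0 had an unadjusted p-value under 0.05.

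**Figure D4:**
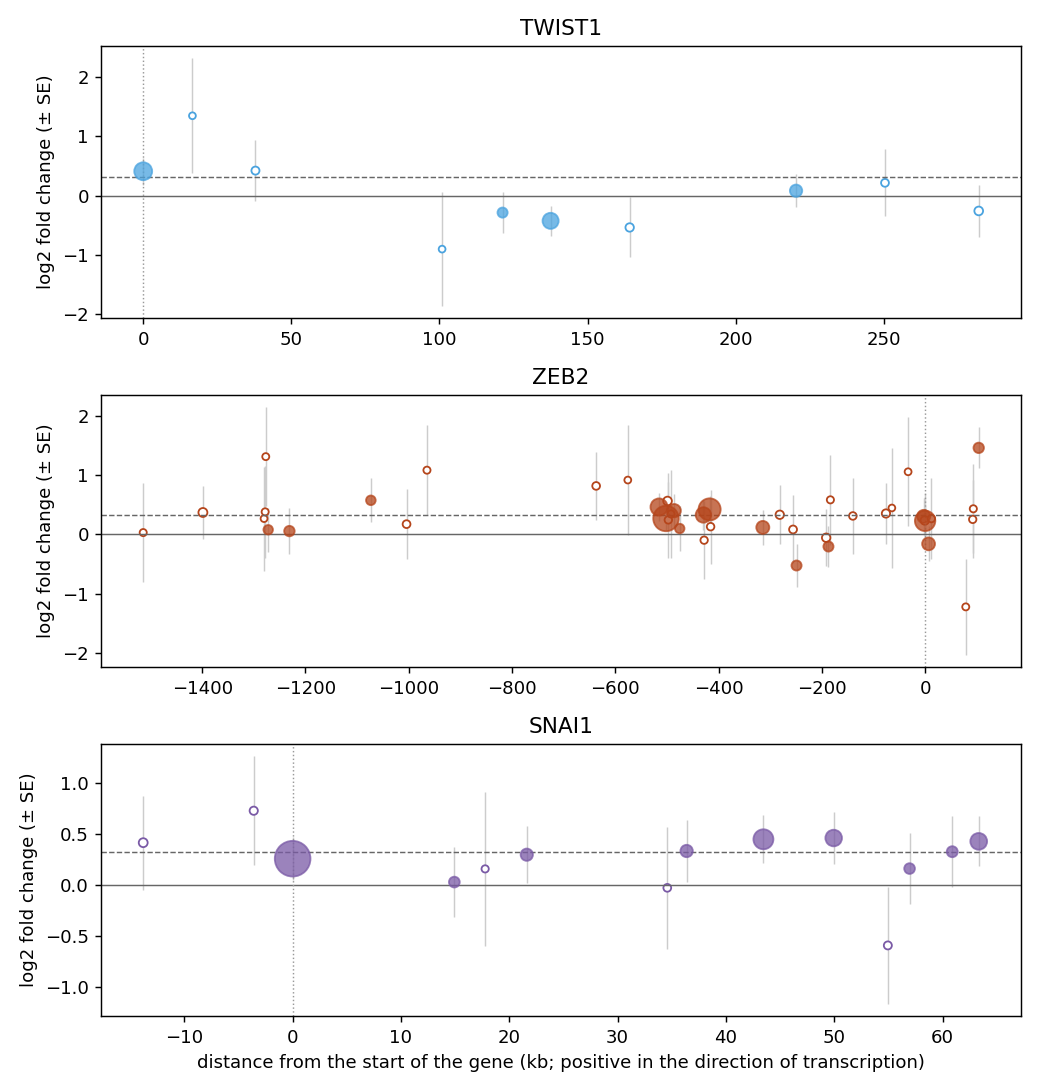
Log2 fold change with the authors' standard error (vertical axis) against distance from the gene start in kb (horizontal axis, positive in the direction of transcription) for the regions of TWIST1, ZEB2 and SNAI1. Point area grows with the mean level, filled points have an adjusted p-value, and the dashed line is the median of all regions with one (0.32). TWIST1 points beyond 100 kb lie mostly below 0, the single high ZEB2 point (1.46) is about 104 kb past the start, and the filled SNAI1 points lie between 0.03 and 0.46.

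At ZEB1, 18.0% of the summed level lay over the start and 80.3% downstream of it. The region over the start was followed by 1 region within the gene, 106767 bases in, with a log2 fold change of 0.65 (SE 0.44) in the authors' deposited table. Another 6 lay past the end of the gene, of which 4 were positive. The widest of all 96 regions was among them (chromosome 10, 31609483 to 31624163, 14680 bases), 290359 bases from the ZEB1 start, with a mean level of 327 and a fold change of 0.14 (SE 0.22) in the authors' deposited table, and it overlapped no protein-coding gene. The most negative ZEB1 region with an adjusted p-value had -0.08 (SE 0.38), and the 1 upstream region close to the start, 3507 bases before it within the divergent RNA gene ZEB1-AS1, had 1.42 (SE 0.88) at a level of 3.70 in the authors' deposited table. None of the 4 with an adjusted p-value was called, and 0 had an unadjusted p-value under 0.05.

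SNAI2 had the least: beside its start, the authors' deposited table listed a region 2039 bases into the gene and 3 between 21841 and 30590 bases past the start, with values from -0.55 (SE 0.62) to 0.41 (SE 1.01). Their mean levels in the authors' deposited table were 14.5 or less, and their standard errors ran from 0.44 to 1.01, so that each interval includes 0.

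SNAI1 and TWIST2 are outside the pair comparison. Of the 11 SNAI1 regions downstream of the start, 9 were positive in the authors' deposited table. Among all regions 10 to 100 kb away from their gene, 28.3% were negative. The 11 SNAI1 regions formed a chain from 14925 to 63324 bases. The strongest, 43452 bases away (chromosome 20, 50026450 to 50031401), had a level of 138 and a log2 fold change of 0.45 (SE 0.23), and its downstream neighbour, 49938 bases away, a level of 90.6 and 0.46 (SE 0.26) in the authors' deposited table. A region at 56942 bases with 0.16 (SE 0.35) in the authors' deposited table overlapped TRERNA1, a long non-coding RNA gene known for acting on SNAI1. All 9 SNAI1 regions with an adjusted p-value were positive, from 0.03 to 0.46, where 87.3% of all regions with one were positive. After subtraction of 0.32, 4 of the 9 were positive. As deposited, 0 were called and 0 had an unadjusted p-value under 0.05. All 7 such TWIST2 regions were positive too, from 0.09 to 0.77, and 5 of them after that subtraction. The highest of these (chromosome 2, 238946789 to 238950874), 98758 bases from the start and past the end of the gene, had 0.77 (SE 0.29) with p = 0.00674 before and 0.131 after adjustment in the authors' deposited table, and did not pass.

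Other genes of the pathway were read in lists. Regions beside partners and corepressors of the 6 factors held 4 calls of 77 with an adjusted p-value (5.19%), all positive, where 1.65% were called positive in the whole table. Their median was 0.31 beside 0.32 in all such regions. Of these calls, 3 lay at ID1 and ID3, whose proteins bind E proteins and keep bHLH factors such as TWIST1 off DNA. On the log2 scale the ID1 start region (chromosome 20, 31601874 to 31611957) had 0.87 (SE 0.22, adjusted p-value 0.0155), and the ID3 start region (chromosome 1, 23553940 to 23565141) 0.72 (SE 0.21, adjusted p-value 0.0409), by the authors' deposited table. Another ID3 region, away from the start (chromosome 1, 23584766 to 23588266), had 0.99 (SE 0.28, adjusted p-value 0.0324) in that same authors' deposited table. After the median was subtracted none of these 3 passed, with adjusted p-values from 0.590 to 0.898. The start regions of the corepressors CTBP1 and CTBP2 had 0.34 (SE 0.23) and 0.20 (SE 0.21) in the authors' deposited table and were not called.

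Of 26 epithelial genes that the factors repress, 24 had a region. Among their 67 regions with an adjusted p-value 0 were called by the authors' deposited DESeq2 table, 18 were positive at an unadjusted p-value under 0.05 (26.9%, against 17.9% in the whole table), and the median was 0.40 against 0.32. CDH1 had 0 regions over its start, and the nearest, 2834 bases away, had a level of 9.91 and 0.12 (SE 0.56) in the authors' deposited table. Regions beside 22 mesenchymal genes numbered 107 with an adjusted p-value, of which 0 were called in the authors' deposited DESeq2 table and 13 (12.1%, again against 17.9%) were positive at an unadjusted p-value under 0.05, with a median of 0.22 against 0.32. VIM, the gene of vimentin, had a start region of level 304 with 0.16 (SE 0.20) in the authors' deposited table. Upstream signals and turnover genes held 3 calls of 121 (2.48%, beside the 1.65% of the whole table), at TGFBR2, a receptor of TGF-beta (0.85, SE 0.25, 256591 bases from its start), and 2 at JUN, in the authors' deposited table. Those 3 also did not pass once the median was subtracted, with adjusted p-values from 0.680 to 0.807. These lists are given as counts, and differences between them were not tested.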

How the data were processed

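H3K27ac ChIP-seq of A375 cells (2 vehicle and 2 octanoate libraries per the labels) was analysed from 1 table of the authors' own comparison. The submitters' processing notes name hg38, Bowtie2, MACS2, featureCounts, DESeq2 and bedtools 2.29.1 among others, without role or order. The mean level is a signal the authors normalized, per the file headers, by a scaling that is not given in the sources used here. Each log2 fold change and standard error is a deposited value, per the file headers. The deposited score of each region, its test statistic, differed from the quotient of both by at most 3.38e-14. The deposited adjusted p-value is 1 for every region with a mean level of 18.4 or less, read as not computed, and for the others it equalled Benjamini-Hochberg adjustment of the deposited p-value to within 1.58e-14.

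Lines repeating a region for another gene were merged across all genes. Intervals are normal, at 95%, from the deposited standard errors. In centring, the median over regions with an adjusted p-value was subtracted and p-values were recomputed from the standard errors. Gene extents come from RefSeq (GRCh38.p14); the strand was taken from the gene end nearest the start implied by the deposited distances, which lay within 708 bases for all 6 genes. Regions named singly are those over starts, with the highest level, the extreme fold changes, the largest width or distance, or an unadjusted p-value under 0.05. Those in the ZEB2 gene, at SNAI2, of TWIST1 within 100 kb, the next and previous ones along a chain, the lineage markers without a call, and the ones at TRERNA1, ZEB1-AS1 and in the ZEB1 gene were chosen after their values were seen. Members, lists and settings were chosen with earlier results of these data known. The planned fallback of a test across libraries was not run, since the table has 1 value per region. A call among the partners and corepressors is not reported here. The procedures were tested on simulated data. The number of per-library columns left out was 0. Python 3.11.15, pandas 2.3.3 and SciPy 1.17.1 were used.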

Additional observations from a re-analysis of the deposited data

How the results depend on the processing

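The 1 call among the member regions was kept at an adjusted p-value under 0.01, with adjustment over all distinct regions (where the ZEB2 region had 0.0200), at a mean level of at least 10 and over all lines. It became 0 after subtraction of the tested regions' median, where the ZEB2 region had 1.14, and 3 at an unadjusted p-value under 0.05. Medians per gene depended on the reach of the assignment: that of ZEB1 was 0.70 within 100000 bases and 0.95 within 10000, and that of TWIST1 turned to 0.42 and 0.41. These medians rest on few regions. Within 10000 bases TWIST1 had its start region alone. ZEB1 had its start region and 1 region of level 3.70 without an adjusted p-value (1.42, SE 0.88). That subtraction gave 0.11 for ZEB1, -0.41 for TWIST1, -0.020 for ZEB2, -0.18 for SNAI2, 0.062 for TWIST2 and -0.015 for SNAI1. Centring within bins of level gave 0.19, -0.41, 0.018 and -0.035 for the first 4 of these and -0.015 for SNAI1. The shift in the centred values follows from the subtraction, and the change with the reach of the assignment from which regions are counted. Whether near and distant regions differ was not tested. Among the pair differences, TWIST1 minus ZEB2 turned to -0.39 and TWIST1 minus SNAI2 to -0.23 with medians over all regions, which take in the TWIST1 regions beyond 100 kb. In all, 43 settings kept the call, or kept direction and moved by less than the smallest standard error of the gene's regions. Another 9 reversed direction, 8 kept direction but moved by more, 2 lost the ZEB2 call and 1 gave more calls. No paired analysis was possible because the table analysed gives each region 1 value for both treatments together; size factors, count filters, a quasi-likelihood test and leaving out each library were not run on that account. Low levels are a limit: 55 of the 96 regions had no adjusted p-value.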

Other observations

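The labelled cell type was checked against 7 genes of the melanocyte lineage. All 7 had at least 1 region, and 3 had one over their start: SOX10 with a level of 774, PMEL with 269 and MITF with 98.4 in the authors' deposited table. The PMEL region lay over the starts of CDK2 and RAB5B as well, so its level and fold change cannot be assigned to PMEL alone, and the SOX10 region was also listed with POLR2F. MLANA, TYR, TYRP1 and DCT had none over their start. Log2 fold changes at the 3 starts were 0.38 (SE 0.21), 0.52 (SE 0.21) and 0.26 (SE 0.27) in the authors' deposited table, and none was called; the PMEL region had an unadjusted p-value of 0.0122.

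Relatives of the 6 factors gave 48 regions beside 9 of 12 genes. Of these 45 were positive, where 67103 of all 91107 regions were. An adjusted p-value was available for 19 of the 48, with a median of 0.35 and 0 calls in the authors' deposited DESeq2 table. Of the 19, 5 were positive at an unadjusted p-value under 0.05 (26.3%, against 17.9% in the whole table). SNAI3, another SNAI gene, had a single region with a level of 9.58 and 0.11 (SE 0.60) in the authors' deposited table. CDH2, the gene of N-cadherin, had 54 regions and none over its start, the nearest being 4470 bases away with a level of 2.93 in the authors' deposited table.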
